A study of Mus musculus with 6 samples.

Results

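The proteasome genes of the adrenal gland were compared between hypertensive BPH and hypotensive BPL mice, particle by particle. A member was any probe set whose only annotated gene symbol began with Psma, Psmb, Psmc, Psmd, Psme or Psmf followed by a digit, without Psmb8 and Psmb9. This gave 51 probe sets for 40 genes, of 10833 probe sets for 8251 genes with 1 symbol on the array. Of these, 49 probe sets for 38 genes belonged to proteasome subunits, their assembly chaperones and their activators. The other 2 were name matches only, Psmc3ip and Psme3ip1, and are described apart. No member was found for the inhibitor Psmf1, and Psme2 had only probe sets shared with a second symbol, so both were not analysed here.

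The 6 Affymetrix arrays held total RNA of adrenal glands from male mice aged 12 weeks, 3 of the BPH strain and 3 of the BPL strain. The strains come from selective breeding for high and low blood pressure, and no treatment is given in the labels for either. The labels do not say whether an array held RNA of 1 animal, so the p-values reflect variation among these arrays only, some of it possibly technical. Values are signals of whole glands, in which fewer cells of a type and less RNA per cell cannot be told apart.

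The proteasome is the main protease of the cytosol and nucleus for proteins tagged with ubiquitin. Its core particle is a barrel with outer rings of alpha subunits, which gate the entrance, and inner rings of beta subunits, of which Psmb5, Psmb6 and Psmb7 carry the chymotrypsin-like, caspase-like and trypsin-like active sites. The regulatory particle caps the barrel: ATPases unfold the substrate, and a lid holds the enzyme that removes ubiquitin. Interferon replaces the active beta subunits by Psmb8, Psmb9 and Psmb10 and induces the activators Psme1 and Psme2.

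Psmb6 was higher in BPH adrenals on its only tested probe set, and no other subunit passed the test. Of 42 subunit probe sets bright enough to be tested, 1 was called higher in BPH and 0 were called lower, against 3.18% and 0.926% of all 7453 tested probe sets (limma, Benjamini-Hochberg adjusted over all tested probe sets, threshold 0.05). At an unadjusted p under 0.05, 3 subunit probe sets were higher (Psma3, Psmb4 and Psmb6) and 0 lower, against 14.2% and 6.4% of all. The single call was 2.38% of the 42, a share near the background. The median log2 difference, BPH minus BPL, was 0.15 over the 42 subunit probe sets and 0.08 over all tested probe sets. With the dimmest 60% of probe sets left out, the medians lay closer, at 0.17 over 39 subunit probe sets and 0.12 over all 4969.

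**Figure D1:**
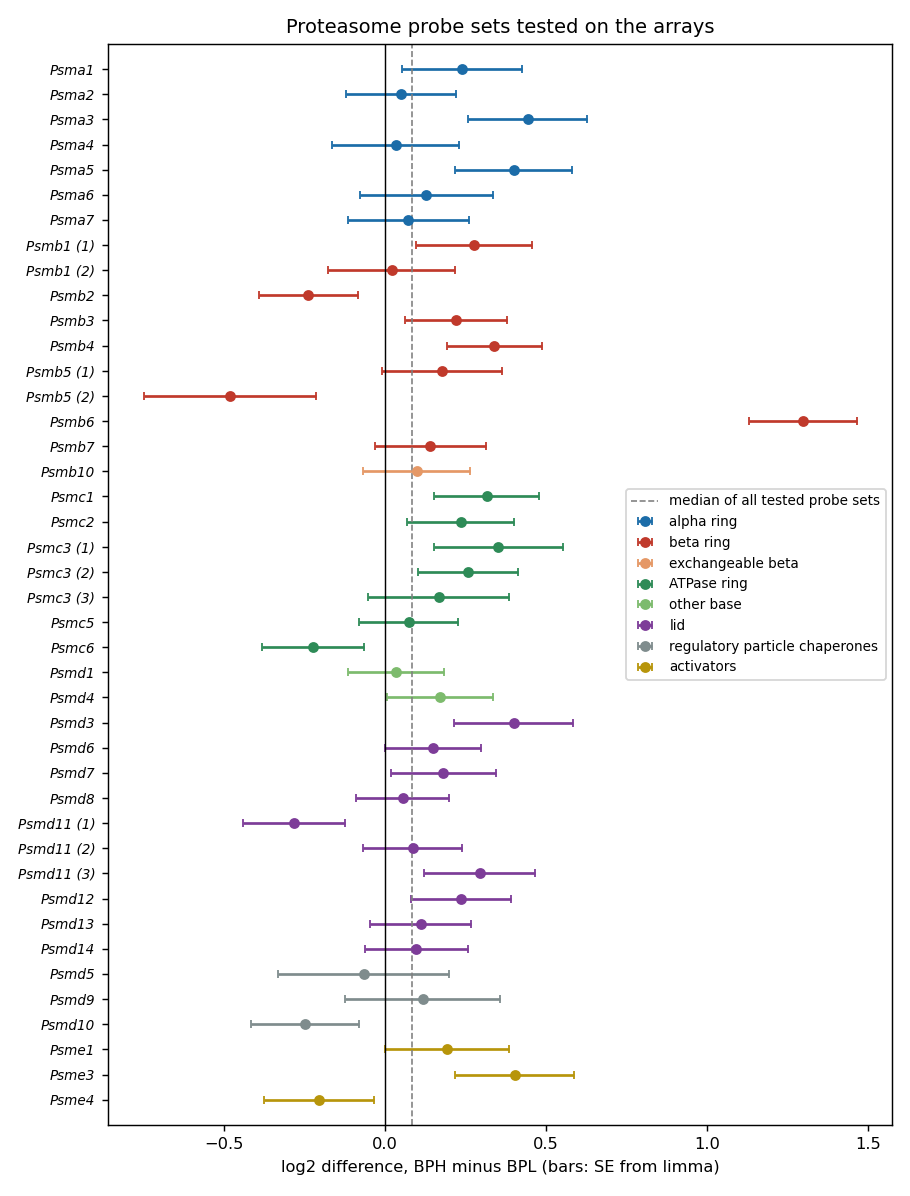
Log2 difference between BPH and BPL (horizontal axis, BPH minus BPL) for each of the 42 tested subunit probe sets, coloured by particle, with bars of 1 SE from limma; a number in brackets separates the probe sets of a gene, and the dashed line is the median of all tested probe sets at 0.08. Psmb6 stands at 1.30, and the next highest probe set, of Psma3, at 0.44.

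Psmb6, which carries the caspase-like active site, gave signals of 3257, 3762 and 3950 on the BPL arrays (replicates 1 to 3, the order used throughout) against 10724, 8113 and 9108 on the BPH arrays. Every BPH array was more than double every BPL array. The BPL mean was 3656 ± 358 and the BPH mean 9315 ± 1318 (SD, n = 3), a 2.55-fold difference. On the log2 scale the difference was 1.30 ± 0.17 (SE, limma adjusted p = 0.0043), with a 95% interval from 0.92 to 1.68. By p-value it ranked 67 and by size of increase 98 among the 7453 tested probe sets.

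The active subunits that share the beta ring with Psmb6 did not pass. Psmb5, of the chymotrypsin-like site, had signals of 11116, 14923 and 14945 in BPL and 18170, 14203 and 13957 in BPH, which overlap, on its brighter probe set (log2 difference 0.18 ± 0.19, limma adjusted p = 0.62). Psmb7, of the trypsin-like site, had 7501, 9834 and 9632 in BPL and 11091, 9550 and 9054 in BPH, which also overlap (0.14 ± 0.17, limma adjusted p = 0.67). Within each array, the log2 signal of Psmb6 minus that of Psmb5 averaged -1.84 ± 0.11 over BPL arrays and -0.72 ± 0.10 over BPH arrays (SD, n = 3). The same difference from Psmb7 was -1.25 ± 0.09 and -0.09 ± 0.12, and from Psmb10 it was -0.04 ± 0.08 and 1.16 ± 0.17. Each of these 3 ratios was higher in all 3 BPH arrays, by 1.12, 1.16 and 1.20 (2-sided exact permutation p = 0.1 and adjusted p = 0.1, the lowest value that 6 arrays in 2 groups of 3 can reach). The ratios were formed after the values were seen.

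**Figure D2:**
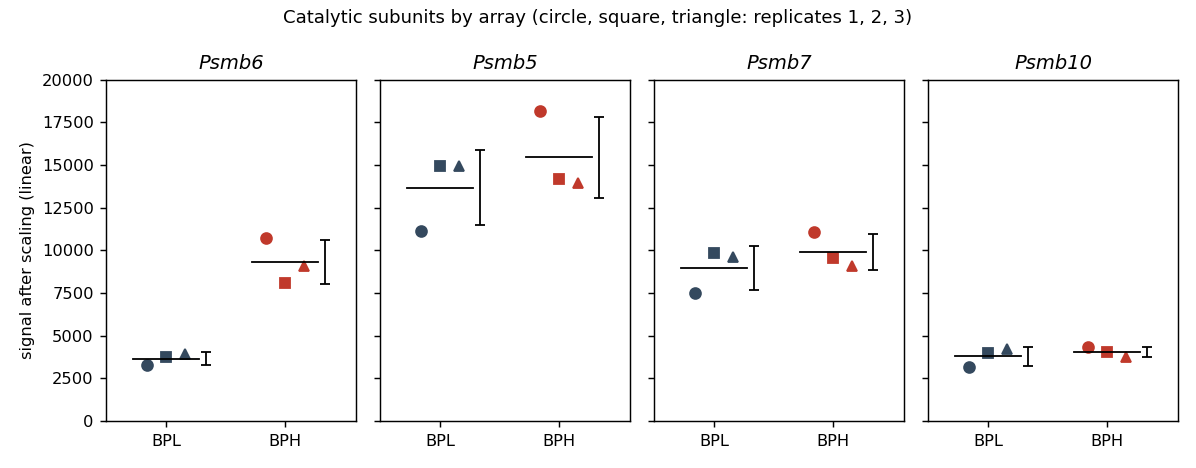
Signals after scaling (vertical axis, linear) of the active-site subunits Psmb6, Psmb5, Psmb7 and Psmb10 in the 3 BPL and 3 BPH arrays; horizontal lines are means and bars are SD over 3 arrays, and levels of different probe sets are not comparable. BPL and BPH arrays separate for Psmb6, from 3257 to 3950 and from 8113 to 10724, and overlap for the other three.

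The promoters of Psmb6 and Psmb5 are printed because the genes share a ring and a motif while only Psmb6 was called. They are RefSeq sequences of assembly GRCm38.p6, a C57BL/6J genome and not that of either strain, and run from 250 bases before to 50 bases after the annotated start. Capitals mark TGACNNNGC, the core of the antioxidant response element, which binds the Nfe2l1 and Nfe2l2 factors known to drive proteasome genes. Psmb6 lies on the plus strand at chr11:70525107-70525406 and Psmb5 on the minus strand at chr14:54617946-54618245.
Psmb6: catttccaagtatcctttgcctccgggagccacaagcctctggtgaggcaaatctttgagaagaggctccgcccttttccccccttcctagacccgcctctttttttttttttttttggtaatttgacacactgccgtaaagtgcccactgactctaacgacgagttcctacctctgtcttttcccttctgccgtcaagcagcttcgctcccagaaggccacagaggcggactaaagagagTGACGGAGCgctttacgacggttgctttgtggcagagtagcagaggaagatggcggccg
Psmb5: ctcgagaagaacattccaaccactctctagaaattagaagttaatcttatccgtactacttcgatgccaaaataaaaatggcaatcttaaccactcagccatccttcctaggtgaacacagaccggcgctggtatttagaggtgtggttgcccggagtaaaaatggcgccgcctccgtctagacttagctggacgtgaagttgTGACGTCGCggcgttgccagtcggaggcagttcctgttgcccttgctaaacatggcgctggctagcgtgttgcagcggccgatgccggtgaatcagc

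Promoters of 32 of the 38 subunit genes matched by symbol, 34 windows in all. TGACNNNGC on either strand was found in 6 of the 34 windows (17.6%) and in 12.4% of all 32851 windows of the same length. The 6 were those of Psmb5, Psmb6, Psmc6, Psmd9, Psmd12 and Psme4. Among tested probe sets of these genes only that of Psmb6 was called, and Psmc6, Psme4 and the dimmer Psmb5 probe set had negative differences. The CCAAT box, 5 bases on either strand, was found in 12 of the 34 windows (35.3%) and in 37.4% of all windows, and in neither printed promoter. No TGACNNNGC match overlapped a CCAAT match in these promoters. In Psmd14, CCAAT matches on opposite strands overlapped each other.

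Among the 10 protein-coding genes on each side of Psmb6, 8 had a tested probe set, 9 probe sets in all. Limma called 0 of the 9 in either direction, against 4.11% of all tested probe sets. At an unadjusted p under 0.05, 1 was higher and 1 lower, against 14.2% and 6.4% of all. Their log2 differences ran from -0.81 for the muscle enolase Eno3 to 0.68 for the Mediator subunit Med11. Eno3 varied widely in BPL, with a mean of 11157 ± 9309 against 4897 ± 671 in BPH (SD, n = 3). The part of muscle RNA in its difference was not tested. These neighbours were looked up after Psmb6 was seen to be called.

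In the alpha ring, 0 of 7 probe sets, 1 for each of 7 genes, were called in either direction. All 7 differences were positive (median 0.13), against 60.5% of all tested probe sets. Psma3 had the largest, with signals of 23429, 28851 and 33395 in BPL and 42067, 40494 and 33481 in BPH. Its groups did not overlap, though by a narrow margin between BPL replicate 3 and BPH replicate 3, and its difference of 0.44 ± 0.18 did not pass (limma adjusted p = 0.22). Psma5 was next, at 0.40 ± 0.18 (limma adjusted p = 0.25), also without overlap. Psma4 had the smallest difference, 0.03 ± 0.20, with 10523, 11426 and 11061 in BPL inside a BPH range of 8501 to 13656. The remaining 4, Psma1, Psma2, Psma6 and Psma7, lay between 0.05 and 0.24.

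In the beta ring, Psmb6 was the only call among 9 tested probe sets for 7 genes, and the median of the other 8 was 0.16. Among the structural beta subunits, Psmb4 had signals of 21586, 24891 and 24092 in BPL and 30390, 30987 and 28009 in BPH. Its groups did not overlap, and the difference of 0.34 ± 0.15 did not pass (limma adjusted p = 0.24). Psmb3 stood at 0.22 ± 0.16 and Psmb1 at 0.28 ± 0.18 and 0.02 ± 0.20 on its tested probe sets. Psmb2 went the other way without overlap, with 10396, 10375 and 9813 in BPL and 9136, 9302 and 7512 in BPH, and did not pass (-0.24 ± 0.15, limma adjusted p = 0.41). The dimmer Psmb5 probe set, at 2254, 1410 and 1806 in BPL and 828, 1843 and 1184 in BPH, gave -0.48 ± 0.27 (limma adjusted p = 0.34). The tested probe sets of Psmb5 thus differed from each other by 0.66 on the log2 scale.

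Psmb10, the interferon-inducible subunit that takes the place of Psmb7, had 3136, 4000 and 4201 in BPL and 4304, 4050 and 3752 in BPH. The groups overlapped and the difference was 0.10 ± 0.17 (limma adjusted p = 0.77), with a 95% interval from -0.28 to 0.48. Psmb9, which takes the place of Psmb6 and is outside the member rule, differed by 0.33 ± 0.20 (limma adjusted p = 0.38), and Psmb8, which replaces Psmb5, by 0.17 ± 0.17 (limma adjusted p = 0.60). Of 9 tested probe sets for 7 genes of the immunoproteasome and peptide loading, Psmb8 and Psmb9 among them, 0 were called by limma (median 0.06). The share called in either direction was 4.11% of all tested probe sets. At an unadjusted p under 0.05, 1 was higher, that of the peptide transporter Tap2, against 14.2% of all. The mean log2 signal of 7 leukocyte markers was 10.33 to 10.40 in BPL and 10.56 to 10.76 in BPH. Tested probe sets of Cd74, Lyz2, Cd68 and Csf1r had differences from 0.21 to 0.73, and Cd79a had -0.49. None of them was called, and Ptprc and Cd3e were too dim to be tested. The part of the leukocyte signal in these values was not tested.

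In the ATPase ring, 0 of 7 tested probe sets for 5 genes were called, 6 of the 7 were positive and the median was 0.23. Psmc3 had the largest difference, 0.35 ± 0.20 (limma adjusted p = 0.35), on a probe set with 1305, 2280 and 1739 in BPL and 2142, 2408 and 2261 in BPH, which overlap. Its other probe sets gave 0.26 ± 0.15 and 0.17 ± 0.22. Psmc1 had 5009, 5715 and 6360 in BPL and 7922, 7080 and 6390 in BPH, a separation of the groups by a narrow margin that did not pass (0.32 ± 0.16, limma adjusted p = 0.31). Psmc6 had the only negative difference, -0.22 ± 0.16 (limma adjusted p = 0.45), with 19775, 24790 and 22976 in BPL and 21064, 18802 and 17781 in BPH. Psmc2 stood at 0.23 and Psmc5 at 0.07.

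Of the base subunits that are not ATPases, Psmd4, a receptor for ubiquitin chains, differed by 0.17 ± 0.17 (limma adjusted p = 0.59). The scaffold subunit Psmd1 differed by 0.03 ± 0.15 (limma adjusted p = 0.92), with 9564, 9332 and 10332 in BPL and 10027, 10799 and 9161 in BPH.

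In the lid, 0 of 10 tested probe sets for 8 genes were called, 9 were positive and the median was 0.13. Psmd3 had the largest difference, with 3618, 4749 and 4128 in BPL and 5432, 6661 and 4664 in BPH. BPL replicate 2 lay above BPH replicate 3, and the difference of 0.40 ± 0.18 did not pass (limma adjusted p = 0.26). Psmd14, the enzyme that cuts ubiquitin off the substrate, differed by 0.10 ± 0.16 and its partner Psmd7 by 0.18 ± 0.16. Psmd11, a lid scaffold, had tested probe sets at 0.29 ± 0.17, 0.09 ± 0.15 and -0.28 ± 0.16, a spread of 0.58, none of them called. The last of these had 1644, 1645 and 1729 in BPL and 1374, 1540 and 1128 in BPH, which do not overlap. Psmd6, Psmd8, Psmd12 and Psmd13 lay between 0.05 and 0.24.

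The chaperones that assemble the regulatory particle leave it when it is complete. Psmd10, also known as gankyrin, had 1279, 1256 and 1628 in BPL and 1225, 965 and 1214 in BPH, lower in each BPH array but not called (-0.25 ± 0.17, limma adjusted p = 0.43). Psmd9 differed by 0.12 ± 0.24 (limma adjusted p = 0.81) and Psmd5 by -0.07 ± 0.27 (limma adjusted p = 0.91). The signals of Psmd5 spread widely within each strain, from 2448 to 4617 in BPL and from 2630 to 4224 in BPH.

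Activators open the core particle in place of the regulatory particle. Psme3, the nuclear member of the PA28 family, had 2470, 3317 and 3131 in BPL and 3961, 4668 and 3365 in BPH. The groups did not overlap, by a narrow margin, and the difference of 0.40 ± 0.18 did not pass (limma adjusted p = 0.26). Psme1, the interferon-inducible PA28 subunit, had 6774, 9240 and 9717 in BPL and 10089, 10918 and 8297 in BPH, which overlap (0.19 ± 0.19, limma adjusted p = 0.60). Psme4, a large nuclear activator, differed by -0.20 ± 0.17 (limma adjusted p = 0.52), with 2806, 2733 and 2976 in BPL and 2397, 2036 and 2952 in BPH.

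Across the particles, the 41 tested subunit probe sets other than Psmb6 had log2 differences from -0.48 to 0.44, and the smallest adjusted p among them was 0.22. No upper bound of their 95% intervals was above 0.86, so each interval lies below the estimate for Psmb6, and the lowest bound was -1.09, for the dimmer Psmb5 probe set. The groups did not overlap for 9 of the 42 with BPH higher (21.4%) and for 3 with BPH lower, against 19.7% and 7.97% of all tested probe sets. These shares are near the background. Of the 42, 35 differences were positive, against 60.5% of all tested probe sets, and 28 lay above the median of all. With the authors' own scaling the median of all tested probe sets moved from 0.08 to -0.02, and 24 of the 42 were positive and 27 above that median. After quantile normalization 21 were positive and 21 above the median, and the medians of the alpha ring and the lid were -0.01 each.

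**Figure D3:**
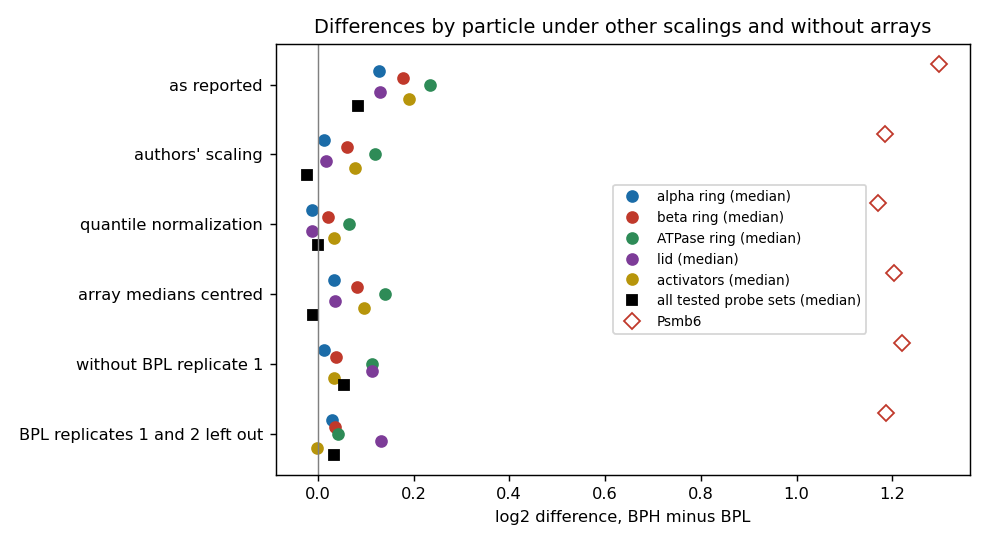
Median log2 difference (horizontal axis, BPH minus BPL) of the tested probe sets of 5 particles, of all tested probe sets (squares) and of Psmb6 (open diamonds), under the values reported, 3 other scalings, without BPL replicate 1 and without BPL replicates 1 and 2 (vertical axis). Psmb6 stays between 1.17 and 1.30 in these 6 settings, while the particle medians lie between -0.01 and 0.23.

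BPL replicate 1 lay below the other arrays for most of the complex. It had the lowest signal for 29 of the 42 subunit probe sets (69.0%), and for 37.1% of all tested probe sets. With the authors' scaling it was the lowest for 24 (57.1% against 26.4% of all), and after quantile normalization for 21 of the 42, against 28.2% of all. In mean deviation from each probe set's 6-array mean, BPL replicate 1 lay at -0.33 for the alpha ring, -0.33 for the ATPase ring, -0.24 for the beta ring, -0.25 for the activators and -0.14 for the lid, and at -0.11 for all tested probe sets. BPL replicates 2 and 3 lay between -0.04 and 0.05 for these particles, near BPH replicate 3 at -0.08 to 0.00. BPH replicates 1 and 2 were high, at 0.08 to 0.25. BPL replicate 1 was also lowest in mean log2 signal of 4 cortex markers, at 16.34 against 16.61 to 16.84 on the other arrays. For 5 medullary markers it was lowest too, at 14.02 against 14.24 to 15.18. The averages of muscle, fat and leukocyte markers were lowest on other arrays. The part of these signals in the subunit values was not tested. Without BPL replicate 1 the median of the 42 was 0.04 and that of all tested probe sets 0.05, with 20 of the 42 above it. Psmb6 differed by 1.22 ± 0.17 in that fit (limma adjusted p = 0.016).

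**Figure D4:**
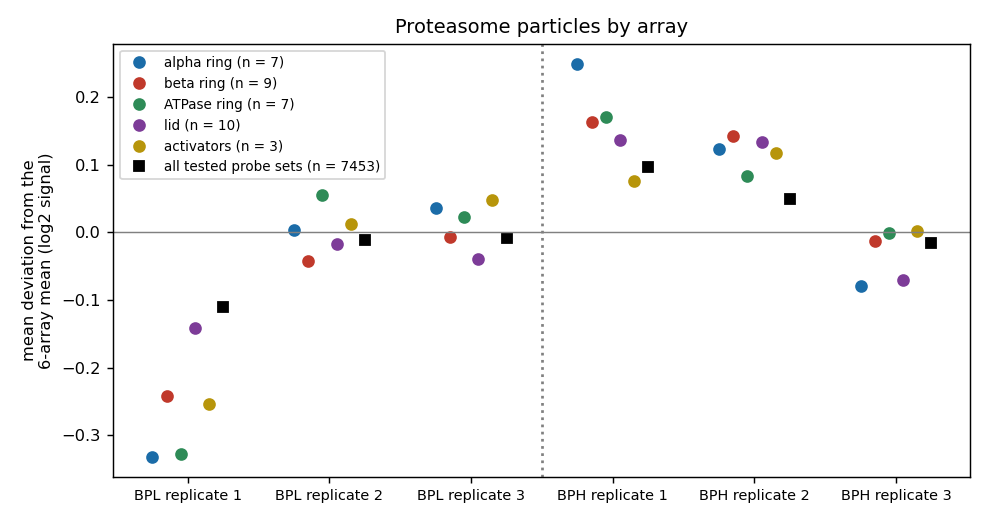
Mean deviation of log2 signals from the 6-array mean (vertical axis) for the tested probe sets of 5 particles and for all tested probe sets (squares), on each of the 6 arrays (horizontal axis). BPL replicate 1 lies lowest, from -0.33 to -0.14 for the particles, and BPL replicates 2 and 3 and BPH replicate 3 lie near 0.

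Several other signals differed between the same arrays. Skeletal muscle markers, 8 in all, averaged 13.39, 14.40 and 10.99 in log2 signal on the BPL arrays and 8.75 to 9.01 on the BPH arrays, and the average of 4 inducible heat shock genes was 11.21 to 11.39 in BPL and 14.32 to 15.76 in BPH. Control probe sets measure RNA integrity by the log2 ratio of 3' over 5' signal. For Gapdh the ratios ran from -0.03 to 0.06 in BPL and from 0.08 to 0.21 in BPH. For Actb they ran from 0.79 to 0.90 in BPL and from 0.94 to 1.25 in BPH. The part of the heat shock genes and of these ratios in the Psmb6 difference was not tested. Without BPL replicates 1 and 2, which had the most muscle signal, Psmb6 differed by 1.19 ± 0.24 and was not called (limma adjusted p = 0.097, a fit in which the lone BPL array is assumed to vary like the others), and 92 of 7453 probe sets were called. The adrenal identity of the samples was clear from bright cortical and medullary markers. The mean log2 signal of the cortex markers Star, Cyp11a1, Hsd3b1 and Cyp21a1 was 16.34, 16.66 and 16.74 on the BPL arrays. On the BPH arrays it was 16.82, 16.84 and 16.61. Fat markers were bright as well. Ucp1, Cidea and Adipoq averaged 15.76, 15.80 and 15.60 in log2 signal on the BPL arrays and 15.71, 15.03 and 15.02 on the BPH arrays. The probe sets of Ucp1 were lower in BPH without overlap but not called. Cidea (-0.63 ± 0.26) and Adipoq (0.08 ± 0.16) overlapped. The part of the fat signal in the Psmb6 difference was not tested. Medullary markers, 5 genes, averaged 14.02, 14.24 and 14.68 in log2 signal on the BPL arrays and 14.83, 15.18 and 14.87 on the BPH arrays, higher on every BPH array, while their summed signals overlapped, from 130359 to 205020 and from 201926 to 265307. Of their 7 tested probe sets 1 was called higher, that of Th, which makes the catecholamine precursor L-DOPA (1.28 ± 0.24, limma adjusted p = 0.023), and the probe sets of Pnmt, the adrenaline-forming enzyme, were higher without overlap but not called. The part of the medullary signal in the Psmb6 difference was not tested.

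Among genes that work with the proteasome, 1 passed. The 60 listed genes were for proteasome assembly, ubiquitin shuttling, ubiquitin and its E1 and E2 enzymes, the p97 segregase, transcriptional regulators and muscle ligases. Of these, 38 were tested with 52 probe sets. The 4 ubiquitin genes and the 2 muscle ligases had no probe set with their symbol alone. Of the 52, 1 was called higher and 0 lower (1.92%, against 4.11% of all tested probe sets in either direction), with a median of 0.17. The groups did not overlap for 18 of the 52 with BPH higher, a larger share than the 19.7% of all tested probe sets. They did not overlap for 3 with BPH lower, a smaller share than the 7.97% of all. Some of the 18 came from the same gene, as for the p97 gene Vcp. The call was Zfand5, a ubiquitin-binding protein that associates with the proteasome, with a BPL mean of 5655 ± 858 and a BPH mean of 10362 ± 1382 (SD, n = 3), a difference of 0.85 ± 0.18 (limma adjusted p = 0.036). It kept its call in 4 of 16 other settings, over which its adjusted p ran from 0.0097 to 0.35, and it was lost with the authors' scaling. It was named after its values were seen. The shuttle factors Ubqln2 (0.69 ± 0.19, limma adjusted p = 0.090) and Rad23b (0.54 ± 0.16 and 0.42 ± 0.20, limma adjusted p = 0.11 and 0.27) did not pass. The other tested shuttle factors were Ubqln1 (0.54 ± 0.15 and -0.17 ± 0.15) and Sqstm1 (0.02 ± 0.18), also not called. Lower without overlap but not called were Cdc34 (-0.42 ± 0.17) and a probe set each of Ube2k (-0.21 ± 0.15) and Faf1 (-0.45 ± 0.17). The other Faf1 probe sets gave 0.25 and 0.09. The proteasome regulators Nfe2l2 (0.65 ± 0.16, limma adjusted p = 0.058) and Nfe2l1 (0.10 ± 0.17 and -0.39 ± 0.22, limma adjusted p = 0.76 and 0.34) did not pass either. Mafk, also listed as a regulator, had the largest difference of the 52, 0.91 ± 0.29 without overlap, and did not pass (limma adjusted p = 0.13). Pomp, the chaperone of core assembly, differed by 0.15 ± 0.17 (limma adjusted p = 0.63).

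Of the 49 subunit probe sets, 7 were too dim to be tested, among them the only ones of the ATPase Psmc4 and of the scaffold subunit Psmd2. Psmc4 had signals of 742, 396 and 588 in BPL and 71, 476 and 130 in BPH, and Psmd2 had 240, 249 and 148 in BPL and 171, 116 and 640 in BPH. Both overlap between strains. The other 5 were further probe sets of Psmb1, Psmb4, Psmc5 and Psme1, each of which had a brighter one. Of the name matches, Psme3ip1 differed by -0.00 ± 0.19 (limma adjusted p = 1.0), and Psmc3ip, a meiotic recombination factor, was too dim to be tested.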

How the data were processed

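The authors deposited linear signal intensities, 1 for each probe set on each array, from MAS5 per the submitters' processing notes. For MAS5, the version, the settings and the target of scaling were not given in the sources used here, and no detection calls were used. Probe sets were named from the platform annotation where it gives 1 symbol. Array medians differed by 21.0%, above a tolerance of 10%, so all arrays were brought to a common median of 1040. Tests used log2(signal + 203), 203 being the 20th percentile, a scale that understates changes of dim genes. The 66 control probe sets and the 40% of the others with the lowest mean were not tested, leaving 7453. BPH was tested against BPL with lmFit and eBayes of limma (version 3.58.1 under R 4.3.3), 2-sided, with 4 residual and 4.50 prior degrees of freedom. The number of arrays limits the precision. Signals are printed after scaling.

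The members and lists were chosen with earlier results of these data known. Named were called members, the highest and lowest difference of each particle, Psmb5, Psmb6, Psmb7, Psmb10, Psme1 and Psme3, and genes whose probe sets differed by over 0.5; other members are given as ranges or contrasts chosen after their values were seen. Probe sets with a suffix such as _f_at or _s_at can match related transcripts. Arrays shared at most 1 identical value in any pair. Replicate numbers were not used to pair the arrays in the reported fit. Correlations of deviations from the group means ran from -0.18 to -0.05 for arrays of like number and from -0.06 to 0.12 for the others. Deviations sum to 0 within each strain, so these values cannot exclude shared handling of like-numbered arrays.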

Additional observations from a re-analysis of the deposited data

How the results depend on the processing

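The 17 other settings included a reading of plain-suffix probe sets only, which reuses the reported fit and could not change the call of Psmb6. Psmb6 was called in 16 of the 17, with differences from 1.17 to 1.39 (1.19 to 1.39 with single arrays left out). It was 1.19 and not called without BPL replicates 1 and 2, where 0 subunits were called by limma, with 1 at an unadjusted p under 0.05 and higher. With the replicate block it was 1.30 (limma adjusted p = 0.016), and the block ended no subunit call, while 239 probe sets were called in all. In every setting run, no other subunit was called. The median of the subunits was -0.00064 after quantile normalization and from 0.04 to 0.23 with single arrays left out. All calls numbered 306 as reported, 127 without the filter, 92 without BPL replicates 1 and 2 and from 112 to 372 with single arrays left out, and the cause was not tested. The share of calls that were higher was 77.5% as reported, 66.3% with the authors' scaling and 67.3% after quantile normalization. Calls among the related ubiquitin genes were 0 with the authors' scaling, quantile normalization, centring, the replicate block, a floor, all probe sets tested and without BPL replicates 1 and 2, and 2 with the higher pseudocount, 3 with the stricter filter and 3 with trended variance, and from 0 to 3 with single arrays left out.

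Signs of small, uncalled differences turned. With the authors' scaling Psma4 stood at -0.082, Psmb10 at -0.013, Psmd1 at -0.080 and a Psmd11 probe set at -0.025. After quantile normalization they were at -0.13, -0.010, -0.12 and -0.027, and Psmb7 at -0.026. With centring Psma4, Psmd1 and the Psmd11 probe set were at -0.061, -0.060 and -0.0088. Without BPL replicates 1 and 2 Psmb10, Psmd1, Psmd9, Psme1 and Psmb9 were at -0.057, -0.050, -0.24, -0.0017 and -0.0081. With single arrays left out Psma4 ran from -0.10 to 0.23, Psmb10 from -0.024 to 0.18, Psmd1 from -0.022 to 0.094 and Psmd9 from -0.094 to 0.30. Only probe sets with a plain suffix, a choice made after seeing the data, gave a subunit median of 0.10 over 32.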
